A study of Mus musculus with 5 samples.

Results

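High mobility group (HMG) chromatin proteins were followed at the transcript level in the newborn mouse hippocampus through 7 genes. These were Hmgb1, Hmgb2 and Hmgb3, then Hmgn1, Hmgn2 and Hmgn3, and finally Hmga1. The genes were given as a list of symbols, and each symbol was found once among the 32285 features of all 5 count matrices. On mm10 (GENCODE release M21), Hmgb1 lies on the minus strand at chr5:149046702-149184489, Hmgb2 on the plus strand at chr8:57511907-57515999 and Hmgb3 on the plus strand at chrX:71555918-71560676. Hmgn1, Hmgn2 and Hmgn3 lie on the minus strand at chr16:96120618-96127729, chr4:133964738-133968650 and chr9:83109948-83146685, and Hmga1 on the plus strand at chr17:27556497-27563674. The members were chosen by their levels from dividing progenitors to maturing neurons and glia in these libraries, so levels across cell types are given as a description, with no test. The rule also names the genotype difference in each library, so the genotype tests below were made on genes picked with earlier results on genotype known.

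HMG proteins are small, abundant non-histone proteins that loosen or bend chromatin. Proteins of the HMGB family carry a pair of HMG boxes, which bend DNA and ease the loading of other factors. Proteins of the HMGN family bind the nucleosome core and compete with linker histone H1 for it. HMGA proteins hold AT hooks, which grip the minor groove of AT-rich DNA. In the developing brain the families are known mainly from dividing neural progenitors, and HMGB1 also acts outside the cell as an alarm signal that microglia sense.

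Single-cell RNA sequencing was performed on hippocampi of Trem2 knockout (Trem2 -/-) pups and wild-type (Trem2 +/+) pups at postnatal day 1. Trem2 is a lipid-sensing receptor of microglia. There were 2 Trem2 KO libraries, numbered 2 and 3, and 3 WT libraries, numbered 1, 2 and 3, and each library pooled 2 pups. One label gives 2 male pups for the libraries numbered 2 and 1 male with 1 female for the others, whereas another gives both sexes for every library. The labels name neither the strain nor the design of the Trem2 allele, and they do not say whether the 2 pups of a library were littermates.

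The libraries held 60024793 to 91205882 unique molecular identifiers (UMIs, counts of single captured molecules), and 29435 cells were kept. Those were 5237 and 5192 Trem2 KO cells and 6204, 4628 and 8174 WT cells. Any pair of libraries shared 12 to 26 cell barcodes, at most 0.35% of the smaller library. Trem2 itself, counted in cells with microglial markers, reached 69.9 and 92.3 CPM (UMIs of a gene scaled to a common total) in the Trem2 KO libraries, against 1711, 1782 and 1372 CPM in the WT libraries. The microglial gate held 24 and 18 Trem2 KO cells and 68, 37 and 24 WT cells. Markers of the hippocampal fields were present in every library: the CA1-like gate held 28 to 121 cells per library and the CA3-like gate 167 to 381.

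Cells were gated by counting marker genes, none of which was an HMG gene. A cell was called dividing with at least 3 of 10 cell cycle markers and non-dividing with at most 1, which left 1242 cells with exactly 2 markers outside both. Excitatory neurons with at least 6 of 8 maturation markers formed the maturing gate, those with at most 4 formed the immature gate, and the 1694 with 5 were left out. Radial glia and astroglia both had at least 4 of 8 glial markers. Those with at least 2 of 6 astrocyte markers entered dividing astroglia or maturing astrocytes, and those with fewer the radial glia gates. There were 11 such lineage gates, beside gates for other cell types, and 7470 cells (25.4%) met no gate. Levels in CPM use the summed UMIs of the gate in a library as that total and are given as the mean ± SD of 5 libraries unless stated. Because markers are easier to detect in cells with more RNA, the gates differed in depth: the median maturing excitatory neuron of WT 1 held 18560 UMIs and the median immature one 7160. In the same library the median was 5813 UMIs in non-dividing radial glia and 8302 in maturing astrocytes. The split of radial glia from astrocytes thus also follows depth in part.

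Hmgb1, the most broadly used member of its family, was high in every gate and about doubled in dividing cells. Its level in dividing radial glia, the neural stem cells, was 2413 and 2373 CPM in Trem2 KO libraries and 2654, 2281 and 2382 CPM in WT libraries. In maturing excitatory neurons it was 1090 and 1184 CPM in Trem2 KO libraries and 1152, 1050 and 1218 CPM in WT libraries. Every library was higher in dividing radial glia, and the ranges did not overlap, as for 34.7% of genes with at least 20 CPM in either gate, at a log2 ratio of 1.09 ± 0.10 (SD, n = 5). The order of the gates ran from dividing Eomes progenitors, the intermediate progenitors of excitatory neurons, at 3073 ± 233 CPM down to maturing astrocytes at 725 ± 34.1 CPM. Both ends stood clear of their neighbours, while the 6 gates from non-dividing Eomes progenitors (1340 ± 107 CPM) to non-dividing oligodendrocyte precursors (955 ± 67.4 CPM) each overlapped the next in line. At the upper end, 11.6% of genes with at least 20 CPM were likewise higher in dividing Eomes progenitors than in dividing radial glia with no overlap.

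Hmgb2, the family member most tied to the cell cycle, spanned the widest range of the 7 genes. Dividing radial glia held 2185 and 2593 CPM in Trem2 KO libraries and 2891, 2140 and 2325 CPM in WT libraries. Maturing excitatory neurons held 10.1 and 14.6 CPM in Trem2 KO libraries and 10.8, 11.0 and 13.3 CPM in WT libraries. The libraries of the 2 gates were far apart, by a log2 ratio of 7.67 ± 0.25, a 204-fold difference. The level in maturing excitatory neurons lies within the range of other cell cycle genes, used further on as a yardstick of background. Background may therefore enter the size of this ratio. The 4 dividing gates lay at 1614 ± 160 to 2794 ± 250 CPM and each overlapped its neighbour. Below them came non-dividing radial glia (274 ± 30.6 CPM) and maturing astrocytes (227 ± 11.7 CPM), and then non-dividing Eomes progenitors (124 ± 10.7 CPM) and oligodendrocyte precursors (112 ± 11.7 CPM). Among the lineage gates neurons were lowest. They held 41.2 ± 9.19 CPM in inhibitory, 31.7 ± 3.86 CPM in immature excitatory and 11.95 ± 1.91 CPM in maturing excitatory neurons.

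Hmgb3, an X-linked member known from blood stem cells, was highest in dividing Eomes progenitors, at 775 ± 83.1 CPM. Dividing radial glia held 521 and 558 CPM in Trem2 KO libraries and 494, 439 and 518 CPM in WT libraries. Maturing excitatory neurons held 145 and 161 CPM in Trem2 KO libraries and 131, 93.5 and 153 CPM in WT libraries. Those 2 gates did not overlap, and their log2 ratio was 1.91 ± 0.19. Inhibitory neurons, at 429 ± 45.9 CPM, lay above maturing excitatory neurons with no overlap, as for 20.5% of genes with at least 20 CPM in either gate. They shared the range of dividing oligodendrocyte precursors (437 ± 32.4 CPM).

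The nucleosome-binding genes Hmgn1 and Hmgn2 were also highest in dividing cells. Hmgn1 reached 1005 and 824 CPM in dividing radial glia of Trem2 KO libraries and 905, 999 and 752 CPM in those of WT libraries. In maturing excitatory neurons it was 279 and 232 CPM in Trem2 KO libraries and 217, 296 and 229 CPM in WT libraries. The ranges did not overlap, and the log2 ratio was 1.84 ± 0.14. The libraries numbered 2 were the highest of their genotype in both gates, a feature taken up below.

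Hmgn2 had its peak in dividing Eomes progenitors, at 2164 ± 172 CPM. These were clear of dividing radial glia, at 1238 ± 98.8 CPM, as for 11.6% of genes with at least 20 CPM in either gate. Dividing radial glia held 1357 and 1324 CPM in Trem2 KO libraries and 1182, 1207 and 1122 CPM in WT libraries. Maturing excitatory neurons held 111 and 119 CPM in Trem2 KO libraries and 95.8, 104 and 113 CPM in WT libraries. This was a log2 ratio of 3.51 ± 0.13, with no overlap. Non-dividing Eomes progenitors kept 737 ± 83.9 CPM, whereas immature excitatory neurons, the next stage, held 179.9 ± 14.95 CPM.

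Hmgn3, a member known in mammals from brain, eye and endocrine tissue, followed another order. Of the 11 lineage gates, maturing astrocytes were highest. They held 406 and 325 CPM in Trem2 KO libraries and 307, 360 and 327 CPM in WT libraries. Maturing excitatory neurons held 259 and 243 CPM in Trem2 KO libraries and 239, 287 and 259 CPM in WT libraries. Dividing radial glia, at 273 ± 27.2 CPM, overlapped maturing excitatory neurons, and the log2 ratio of these gates was 0.08 ± 0.11. The 6 highest gates each overlapped the next in line. The lowest level among the lineage gates was that of non-dividing Eomes progenitors, at 112 ± 8.95 CPM. It lay below immature excitatory neurons, at 135 ± 11.0 CPM, with no overlap, as for 15.7% of genes with at least 20 CPM in either gate.

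Hmga1, the AT-hook member, was counted rarely. It reached 12.1 and 11.9 CPM in dividing oligodendrocyte precursors of Trem2 KO libraries and 9.69, 17.8 and 18.6 CPM in those of WT libraries, from 61 UMIs in all. In dividing radial glia it was 3.10 ± 0.915 CPM, from 15 UMIs. No gate stood clear of the next in its order. Every 75-base stretch near the 3' ends of its coding transcripts that is not unique (62.1% of all) also lies in the retrogene Hmga1b, which the files count too.

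**Figure D1:**
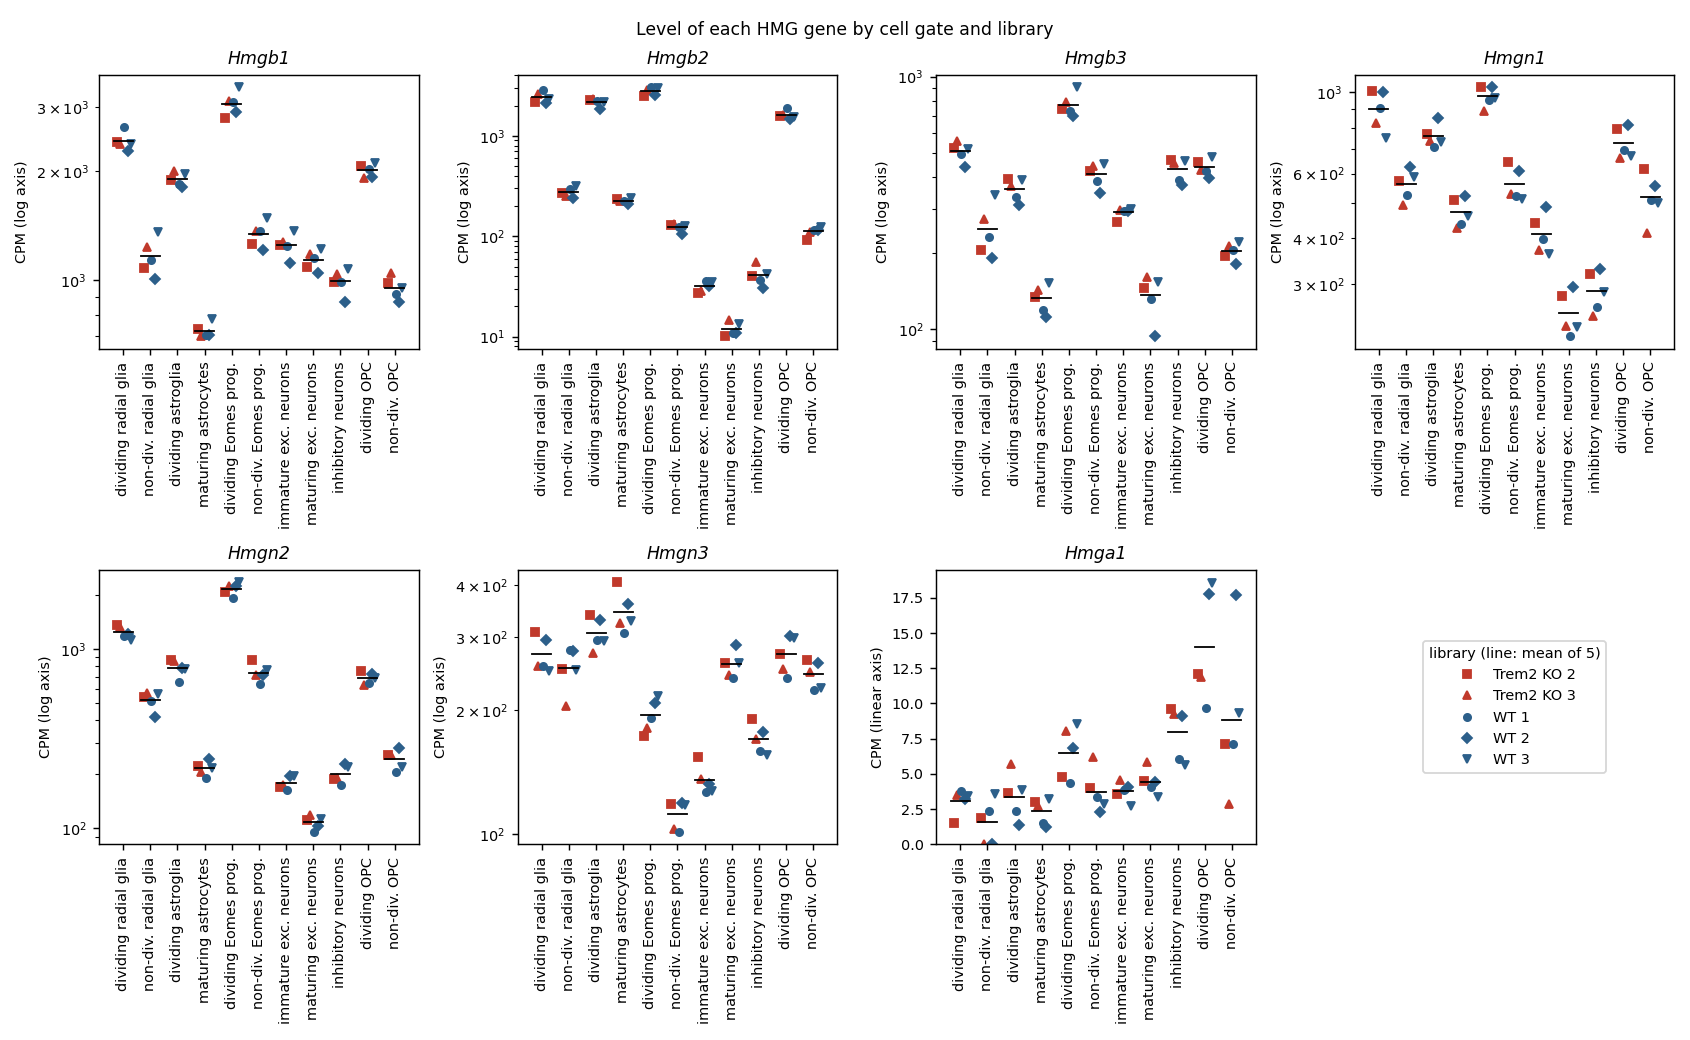
Level of each HMG gene, in CPM, in 11 marker gates, with red symbols for Trem2 KO libraries left of blue symbols for WT libraries and a black line at the mean of 5 libraries. Hmgb2 drops from over 1000 CPM in the dividing gates to 11.95 CPM in maturing excitatory neurons. Of these gates, Hmgn3 is highest in maturing astrocytes, and the axis of Hmga1 is linear.

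Shared 3' ends bear on the other levels as well, since the assay reads that end. Over the last 400 bases of the coding transcripts in GENCODE release M21, 43.7% of 75-base stretches of Hmgb1 also occurred in 84 other genes, mostly processed copies, and none of those genes is counted in the files. The share was 34.4% for Hmgb2, 35.9% for Hmgb3, 16.6% for Hmgn1 and 43.5% for Hmgn2, and 0 for Hmgn3. For Hmgn2 the copy Gm10282 held all of the shared stretches and is counted, with 22.8 CPM in dividing Eomes progenitors and 0.899 CPM in maturing excitatory neurons. How such reads were split in counting was not stated, so absolute levels of these genes are uncertain.

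Dividing cells were next set against non-dividing cells of the same lineage. Hmgb2 was higher in dividing cells by a log2 ratio of 3.14 ± 0.20 in radial glia, 3.26 ± 0.09 in astroglia, 4.49 ± 0.14 in Eomes progenitors and 3.85 ± 0.20 in oligodendrocyte precursors. The spread between libraries was small against these ratios. Hmgb1 (1.06 to 1.39), Hmgb3 (0.92 to 1.45), Hmgn1 (0.49 to 0.79) and Hmgn2 (1.26 to 1.86) were higher in dividing cells of all 4 lineages. In each lineage these 5 genes had no library of the dividing gate within the range of the non-dividing gate. Among genes with at least 20 CPM in either gate, that held for 10.1% in radial glia, 20.8% in astroglia, 21.7% in Eomes progenitors and 10% in oligodendrocyte precursors. Hmgn3 met it in Eomes progenitors alone, where it was 194 ± 18.1 CPM in dividing and 112 ± 8.95 CPM in non-dividing cells, a log2 ratio of 0.79 ± 0.15. In the astroglial comparison its log2 ratio was -0.17 ± 0.09.

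Free RNA from dividing cells can add UMIs to other droplets, so 10 cell cycle genes that were used in no gate served as a yardstick. In maturing excitatory neurons they kept a median of 0.80% of their level in dividing radial glia, with a range of 0.10% to 3.35%, and Hmgb2 kept 0.49%. The 11.95 CPM of Hmgb2 in these neurons lies within that range and is not read as expression. The yardstick genes differ widely among themselves, and low expression of some of them was not tested. A place within their range thus does not show background alone. In non-dividing radial glia the 10 genes kept 0.40% to 6.48%, against 11.3% for Hmgb2, and in maturing astrocytes they kept 0.48% to 5.01%, against 10.5%. Hmgb2 lay above the whole yardstick in those glial gates, within it in Eomes progenitors (4.45%) and just above it in oligodendrocyte precursors (6.93%, with a highest yardstick gene at 6.86%).

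**Figure D2:**
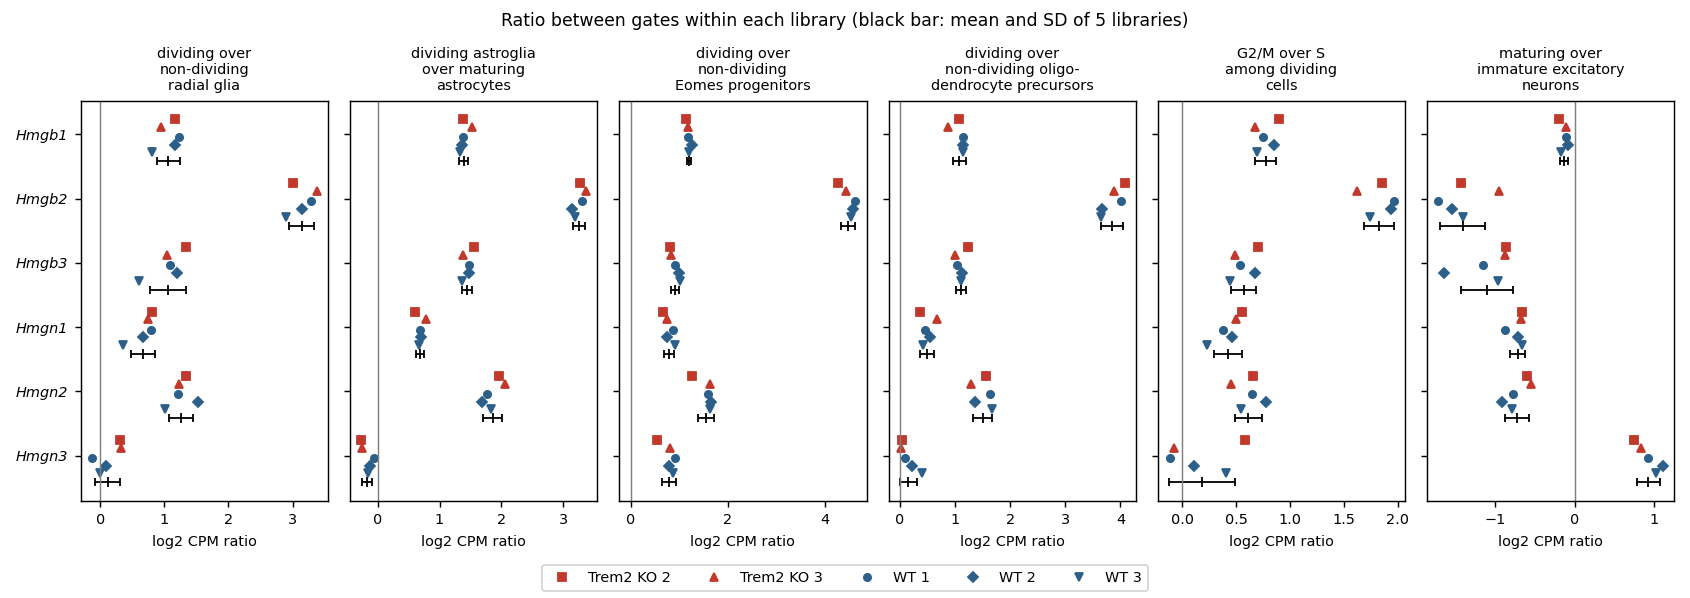
Log2 ratio of CPM between pairs of gates within each library, for 6 HMG genes, with red symbols for Trem2 KO, blue symbols for WT and a black bar for the mean and SD of 5 libraries. Hmgb2 has the largest ratio in the first 5 panels, and Hmgn3 alone lies right of 0 in the last panel, at 0.93 ± 0.14.

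Within dividing cells, Hmgb2 depended on the phase of the cycle. The G2/M gate held 178 to 396 cells per library and the S gate 58 to 114. Hmgb2 was 3034 and 3052 CPM in G2/M cells of Trem2 KO libraries and 3396, 2758 and 3071 CPM in those of WT libraries. In S-phase cells it was 841 and 988 CPM in Trem2 KO libraries and 870, 720 and 915 CPM in WT libraries. All libraries were higher in G2/M, by 3.54-fold (log2 ratio 1.83 ± 0.14). The ratio was 0.77 ± 0.10 for Hmgb1, 0.57 ± 0.11 for Hmgb3, 0.61 ± 0.12 for Hmgn2 and 0.42 ± 0.13 for Hmgn1, each with no overlap, which was met by 6.71% of genes with at least 20 CPM. Hmgn3 overlapped between the phases (0.18 ± 0.30).

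Counting markers in finer steps showed that the difference did not sit at the gate's edge. In the astroglial lineage Hmgb2 was 221 CPM with 0 dividing markers, 264 CPM with 1, 459 CPM with 2, 1125 CPM with 3 to 5, 2314 CPM with 6 to 8 and 2770 CPM with 9 to 10. Hmgb1 ran from 738 CPM to 2252 CPM over the same steps and Hmgn2 from 222 CPM to 1000.3 CPM. Hmgn3 stayed between 259 and 338 CPM. After each cell was thinned to 4000 UMIs, Hmgb2 ran from 236 CPM with 0 markers to 3331 CPM with 9 to 10.

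Along the maturation of excitatory neurons the genes parted. Between maturing and immature neurons the log2 ratio was -1.41 ± 0.28 for Hmgb2, -1.10 ± 0.32 for Hmgb3, -0.72 ± 0.09 for Hmgn1 and -0.73 ± 0.15 for Hmgn2, with no overlap for these 4 genes. Of genes with at least 20 CPM, 23.5% were lower in this way. Hmgb2 kept 1.31% of its dividing radial glia level in immature and 0.49% in maturing neurons, against yardstick medians of 0.86% and 0.80%. Both Hmgb2 levels lie within the yardstick range, and the part of background in its ratio was not tested. That ratio is not read as a change of expression. Hmgb1 overlapped between the gates (-0.13 ± 0.05). Hmgn3 was higher in maturing neurons, by 0.93 ± 0.14 with no overlap, as were 28.4% of such genes. By single markers, Hmgn3 went up from 94.9 CPM with 0 of 8 maturation markers to 170 CPM with 5, 219 CPM with 6 and 290.0 CPM with 8, while Hmgb3 was 335, 237, 185 and 98.1 CPM at the same steps. With thinned cells Hmgn3 ran from 102 CPM with 0 markers to 281 CPM with 7, and only 10 cells had 8.

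**Figure D3:**
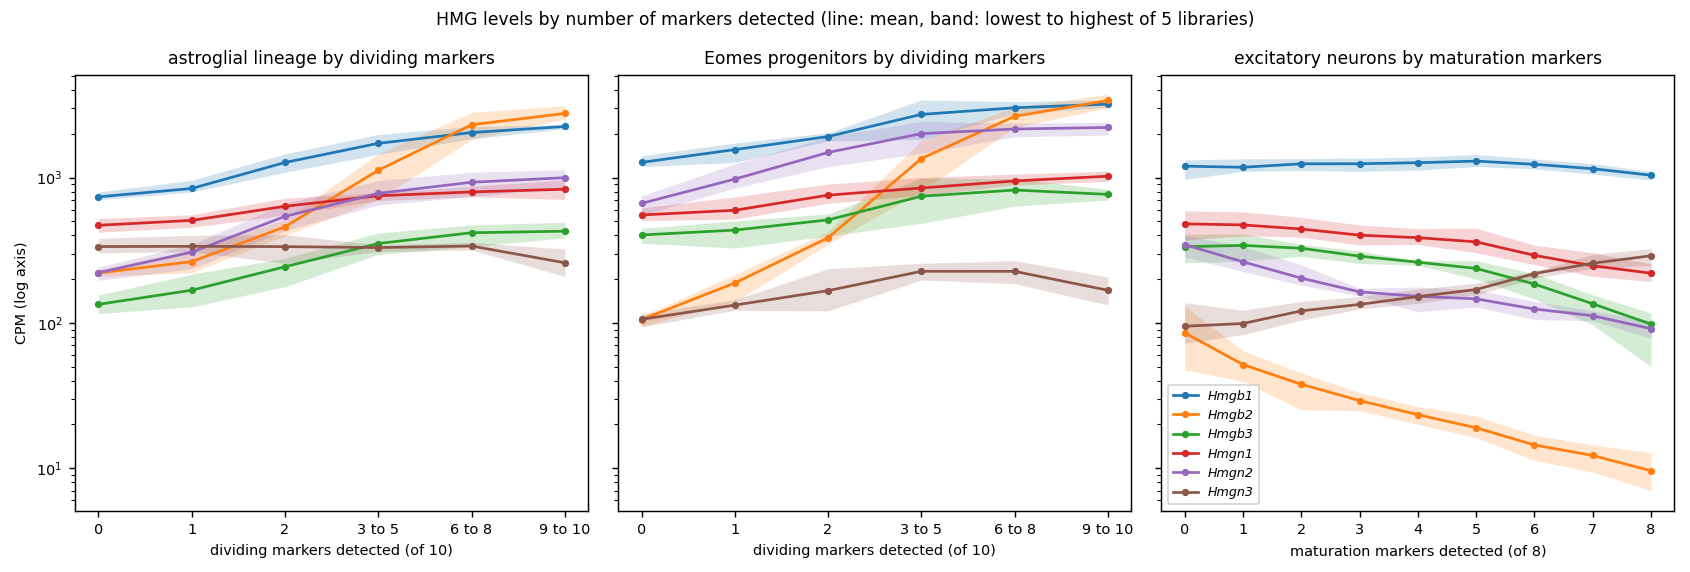
CPM on a log axis against the number of dividing or maturation markers detected in a cell, for 6 HMG genes, as the mean (line) and the lowest to highest library (band). Hmgb2 climbs with dividing markers in both progenitor panels, and in excitatory neurons Hmgn3 climbs to 290.0 CPM while Hmgb3 declines to 98.1 CPM.

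Hmgb3 differed between hippocampal fields among maturing neurons. In CA3-like neurons it was 101 and 98.7 CPM in Trem2 KO libraries and 56.4, 53.9 and 74.8 CPM in WT libraries. In CA1-like neurons it was 272 and 239 CPM in Trem2 KO libraries and 219, 247 and 293 CPM in WT libraries. The fields did not overlap, at a log2 ratio of -1.77 ± 0.39, and 11.4% of genes with at least 20 CPM were lower in CA3-like neurons in this way. Prox1-positive neurons held 339 ± 44.8 CPM of Hmgb3 and overlapped CA1-like neurons. This gate, aimed at dentate granule cells, required Prox1 and few CA1 markers. It used no other dentate marker and set no limit on CA3 markers. It held 33, 19 and 139 cells in WT 1, 2 and 3 and 74 and 136 in Trem2 KO 2 and 3. Within CA3-like neurons both Trem2 KO libraries lay above all WT libraries, as for 8.13% of genes with at least 20 CPM there; the genotype difference within fields was not tested. Hmgn1 was higher in Prox1-positive (396 ± 41.8 CPM) than in CA3-like neurons (237 ± 34.1 CPM), also with no overlap, as for 13.3% of genes. Depth differed between these gates. In WT 1 the median cell held 21129 UMIs in the CA3-like, 18419.5 in the CA1-like and 11065 in the Prox1-positive gate. Both genes were lower in the maturing than in the immature gate above, and the part of depth or maturation in the field differences was not tested.

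Glia and other cells set Hmgn3 and Hmgb3 apart again. Maturing astrocytes had more Hmgn3 than maturing excitatory neurons in every library (log2 ratio 0.42 ± 0.13, no overlap), as did 34.5% of genes with at least 20 CPM. Hmgb2 (4.26 ± 0.22), Hmgn1 (0.92 ± 0.09) and Hmgn2 (0.99 ± 0.16) were higher in astrocytes too, whereas Hmgb1 was lower (-0.65 ± 0.08, as were 38.8% of such genes with no overlap) and Hmgb3 overlapped (-0.03 ± 0.18). Ependymal cells held 440 ± 34.8 CPM of Hmgn3. Microglia held 22.1 ± 15.9 CPM of Hmgn3 and 13.8 ± 4.77 CPM of Hmgb3, from 23 and 16 UMIs, and endothelial cells held 30.7 ± 9.41 CPM of Hmgn3. Hmgb1 in microglia was 684 and 677 CPM in Trem2 KO libraries and 464, 497 and 508 CPM in WT libraries, from 685 UMIs in all. Trem2 KO lay above WT with no overlap there, as for 9.46% of genes with at least 20 CPM in microglia, and no test was made because 1 library held only 18 microglia.

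The genes most like each member were sought by the Pearson correlation of mean log2(CPM + 1) over the 11 lineage gates, among 9448 genes. These values describe 11 points that share libraries and depth, and carry no p. Hmgb2 was followed most closely by the linker histone genes Hist1h1e (r = 1.00) and Hist1h1b (r = 0.99). Hmgb1 was nearest to Nup62 (r = 0.98), Dut (r = 0.98) and Hnrnpd (r = 0.98), and Hmgb3 to Tra2b (r = 0.94), Dcakd (r = 0.94) and Nmral1 (r = 0.93). Hmgn1 was nearest to Pcbp2, Actl6a and Oard1 (r = 0.99 each). Hmgn2 was nearest to its own copy Gm10282 (r = 0.99), which shares its 3' end, then to Fam98b (r = 0.98) and Mbd3 (r = 0.97). Hmgn3 was nearest to Add3 (r = 0.97) and Sqle (r = 0.94), and Hmga1 to Epb41l3 (r = 0.92), Clgn (r = 0.90) and Samd1 (r = 0.89).

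Related chromatin genes were read in the same gates. Of the linker histones, which compete with HMGN proteins on the nucleosome, 7 of 7 with at least 20 CPM were higher in dividing radial glia than in maturing excitatory neurons with no overlap, with a median log2 ratio of 4.09. Over all genes 34.7% met this, with a median of 0.07. Histone chaperones, which hand histones to DNA, met it in 13 of 15 cases (median 1.86). Other HMG and HMG-box genes met it in 9 of 15 cases (median 1.00), among them Hmgn5, a nucleosome-binding relative, with 176 CPM in dividing radial glia and 70.9 CPM in maturing excitatory neurons. Hmga2, the other AT-hook gene, had 15.8 CPM in dividing and 16.9 CPM in non-dividing oligodendrocyte precursors, against 1.89 CPM in dividing radial glia and less than that in neurons. Of 8 genes for HMGB1 receptors, only Cd24a and Cxcr4 reached 20 CPM in either gate. Ager, the receptor RAGE, was at 3.42 CPM in microglia, where Tlr2 was at 85.3 CPM and Havcr2 at 63.1 CPM.

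Promoters of Hmgb2, Hmgb3, Hmgb1 and Hmgn2, which were higher in dividing cells, are shown because CCAAT boxes (CCAAT, bound by NF-Y) and the cell cycle homology region or CHR (TTTGAA) are known elements of genes used in G2 and mitosis. Hmgn1 was higher in dividing cells too and is given by its motif counts only. Sequences are from RefSeq on GRCm38.p6, 270 bases each (250 before the annotated start and 20 from it), and 6 of 7 members had an entry. Capitals mark CCAAT and TTTGAA or their reverse complements ATTGG and TTCAAA. The Hmgb2 window lies on the plus strand at chr8:57511593-57511862 and that of Hmgb3 on the plus strand at chrX:71555667-71555936. The window of the more upstream RefSeq start of Hmgb1 lies on the minus strand at chr5:149053038-149053307, and that of Hmgn2 on the minus strand at chr4:133967972-133968241. RefSeq starts are not all those of GENCODE release M21: the Hmgb1 and Hmgn2 windows lie inside the genes as placed above, and the Hmgb2 window ends before its gene. Motif places hold for the RefSeq starts only.
Hmgb2: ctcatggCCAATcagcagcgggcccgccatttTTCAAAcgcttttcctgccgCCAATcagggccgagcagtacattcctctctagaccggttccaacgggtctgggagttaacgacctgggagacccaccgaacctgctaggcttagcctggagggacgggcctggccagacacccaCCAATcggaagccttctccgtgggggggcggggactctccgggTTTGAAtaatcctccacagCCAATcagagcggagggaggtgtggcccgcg
Hmgb3: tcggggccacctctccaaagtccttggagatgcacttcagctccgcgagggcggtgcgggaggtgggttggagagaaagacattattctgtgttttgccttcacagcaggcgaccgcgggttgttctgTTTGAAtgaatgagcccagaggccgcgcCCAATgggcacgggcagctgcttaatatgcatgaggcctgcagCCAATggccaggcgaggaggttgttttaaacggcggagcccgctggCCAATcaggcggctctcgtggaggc
Hmgb1: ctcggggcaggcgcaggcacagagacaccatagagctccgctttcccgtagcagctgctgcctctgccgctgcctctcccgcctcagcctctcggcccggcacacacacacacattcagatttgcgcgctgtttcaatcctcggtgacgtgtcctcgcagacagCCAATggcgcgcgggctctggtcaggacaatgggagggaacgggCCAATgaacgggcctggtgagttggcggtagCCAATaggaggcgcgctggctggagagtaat
Hmgn2: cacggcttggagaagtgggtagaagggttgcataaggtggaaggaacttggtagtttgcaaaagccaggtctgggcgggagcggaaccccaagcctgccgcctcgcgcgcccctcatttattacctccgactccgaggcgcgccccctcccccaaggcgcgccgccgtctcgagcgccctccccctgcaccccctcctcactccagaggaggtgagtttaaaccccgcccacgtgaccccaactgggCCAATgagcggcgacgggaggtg

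The Hmgb2 window held 4 CCAAT letters and 2 CHR letters, with 1 CHR ahead of the last CCAAT before the start. The Hmgb3 window held 3 CCAAT and 1 CHR, the upstream Hmgb1 window 3 CCAAT and no CHR, and the Hmgn2 window 1 CCAAT. Hmgn1 had 2 CCAAT, and neither Hmga1 window nor the downstream Hmgb1 window had either motif. Of 27025 promoter windows of this length, 35.9% held at least 1 CCAAT on either strand, 11.2% at least 2, 3.24% at least 3, and 17.1% held a CHR. The CCAAT and CHR letters do not overlap each other. Letters of E2F sites were searched too. TTCCCGC and TTGGCGC, held by 4.17% and 2.23% of the 27025 windows, occurred in no window of a member. A match of letters is not a bound site, and binding was not measured.

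The question of the study, how loss of Trem2 acts on cells of the developing hippocampus, was then asked of the HMG genes. No member differed between the genotypes at an adjusted p below 0.05 in any of 14 gates with at least 20 cells in every library (edgeR quasi-likelihood test with Benjamini-Hochberg adjustment over all genes of a gate). The 7 genes gave 93 fits, since Hmga1 passed the filter on low counts in 9 gates, and the smallest adjusted p was 0.904; DESeq2 called 0 of them too. Over all genes of the 14 gates, 0.00271% passed. At an unadjusted p below 0.05 there were 2 of 93 fits, against 3.25% of all fits. Trem2 KO and WT libraries did not overlap in 15 fits (16.1%), 10 with Trem2 KO higher and 5 with Trem2 KO lower, against 18.3% of all fits (8.77% with Trem2 KO higher and 9.5% with Trem2 KO lower). The libraries, 2 and 3 pools of pups, are the replicates. These p-values set the genotype difference against the spread between pools, which edgeR moderates over all genes of a gate.

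In dividing radial glia the log2 fold change of Trem2 KO over WT was -0.03 ± 0.11 (SE) for Hmgb1, -0.04 ± 0.15 for Hmgb2 and 0.15 ± 0.13 for Hmgb3. It was 0.04 ± 0.15 for Hmgn1, 0.19 ± 0.11 for Hmgn2 and 0.08 ± 0.15 for Hmgn3. Hmgn2 and Hmgb3 had both Trem2 KO libraries above all WT libraries there, which 10.1% of genes in that gate met. In maturing excitatory neurons the values were 0.02 ± 0.08 for Hmgb1, 0.08 ± 0.18 for Hmgb2, 0.30 ± 0.16 for Hmgb3, 0.07 ± 0.15 for Hmgn1, 0.16 ± 0.10 for Hmgn2 and -0.04 ± 0.10 for Hmgn3, all with overlapping groups. Hmga1, at only 3.39 to 5.83 CPM there, had 0.43 ± 0.23. Both Trem2 KO libraries lay above all WT libraries for it, as for 8.04% of genes in that gate. Over its 9 gates Hmga1 ran from -1.10 to 0.81. Its groups did not overlap in 3 gates with Trem2 KO higher and 1 with Trem2 KO lower, against 8.77% and 9.5% of all fits. The 95% interval of Hmgb3 in these neurons ran from -0.06 to 0.65. For the 6 genes other than Hmga1, 83 of 84 intervals lay within -1 and 1, so a change of 2-fold or more lay outside them; the exception was Hmgn2 in fibroblasts.

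The 2 fits below an unadjusted p of 0.05 were Hmgb2 in immature excitatory neurons and Hmgn2 in fibroblasts. Hmgb2 was 27.2 and 28.3 CPM in Trem2 KO libraries, against 35.5, 32.1 and 35.3 CPM in WT libraries. Its groups did not overlap, at a log2 fold change of -0.29 ± 0.13 (edgeR, adjusted p = 1.00), and 10.6% of genes in that gate were lower with no overlap. These levels averaged 1.31% of that in dividing radial glia, within the 0.23% to 5.84% of the 10 yardstick genes (median 0.86%). Background and low expression cannot be told apart within that range, so these levels are not read as expression. The share of kept cells in the 4 dividing gates was 7.54% and 6.36% in Trem2 KO libraries and 11.7%, 9.81% and 6.95% in WT libraries, and its part in this difference was not tested. Hmgn2 in fibroblasts was 46.5 and 76.2 CPM in Trem2 KO libraries and 78.6, 90.1 and 114 CPM in WT libraries, at -0.61 ± 0.28 (edgeR, adjusted p = 0.998), also with no overlap, as for 9.55% of genes lower in that gate. Leaving out each library gave -1.02 (without Trem2 KO 3) to -0.31 (without Trem2 KO 2) for it. Neither passed the adjusted threshold.

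**Figure D4:**
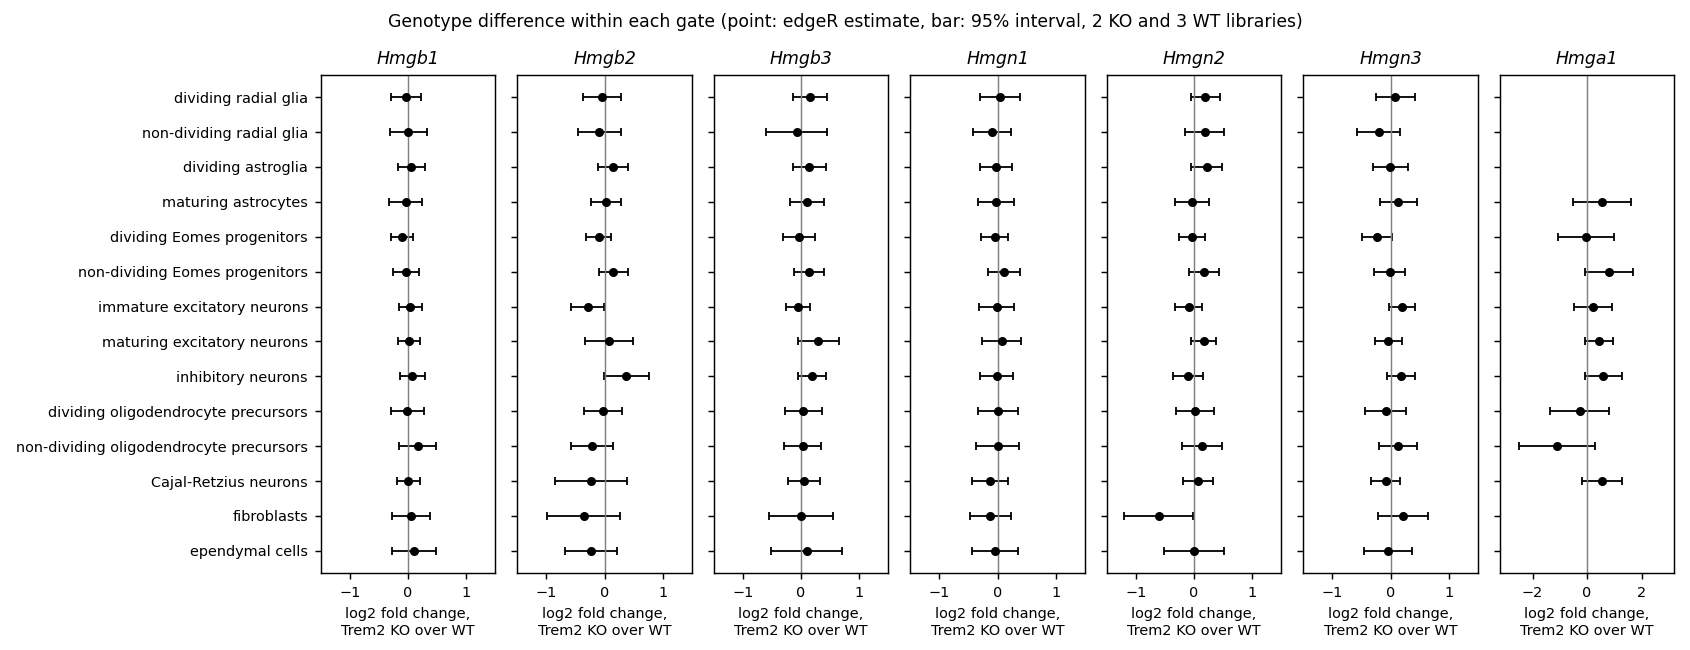
Log2 fold change of Trem2 KO over WT for each HMG gene in 14 gates, with the edgeR estimate (point) and its 95% interval (bar), from 2 Trem2 KO and 3 WT libraries. Most intervals cross 0, the exceptions are Hmgb2 in immature excitatory neurons and Hmgn2 in fibroblasts, and the axis of Hmga1 is wider.

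Over all kept cells, Hmgb2 was 291 and 280 CPM in Trem2 KO libraries and 516, 404 and 310 CPM in WT libraries. The groups did not overlap, as for 19.6% of genes, lower in Trem2 KO, over all cells, at a log2 fold change of -0.48 ± 0.20 (edgeR, adjusted p = 0.430). By the share of dividing cells given above, the libraries ranked in nearly the same order. The part of cell makeup in the Hmgb2 value was not tested, and within the dividing gates its log2 fold change was -0.04 ± 0.15 in radial glia, 0.14 ± 0.11 in astroglia, -0.10 ± 0.09 in Eomes progenitors and -0.03 ± 0.15 in oligodendrocyte precursors. Fewer cells of a type and less RNA per cell cannot be told apart in such a sum.

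The genotype effect was also compared between dividing radial glia and maturing excitatory neurons in a single fit that carried a term for each library. No HMG gene differed, and 0.00729% of all genes did. The difference of log2 fold changes (± SE), dividing minus maturing, was -0.07 ± 0.11 for Hmgb1, -0.13 ± 0.16 for Hmgb2 and -0.19 ± 0.14 for Hmgb3. It was -0.06 ± 0.13 for Hmgn1, -1.3e-05 ± 0.13 for Hmgn2 and 0.09 ± 0.15 for Hmgn3. For the rarely counted Hmga1 it was -0.97 ± 0.98. At an unadjusted p below 0.05 there were 593 genes and no HMG gene.

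None of the genes in the related lists passed in any tested gate either. By smallest p in dividing radial glia, the values were Cic 0.49 ± 0.25, Hist1h1d -0.86 ± 0.34, Nap1l1 -0.24 ± 0.11 and Cxcr4 0.90 ± 0.50 (log2 fold change ± SE, edgeR, adjusted p = 1.00 each). In maturing excitatory neurons they were Hmg20b -0.38 ± 0.14, Hist1h1b -1.42 ± 0.61, Chaf1b 0.65 ± 0.26 and Cxcr4 0.21 ± 0.22 (adjusted p = 0.991 each).

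Library number, rather than genotype, lined up with Hmgn1. In all 14 gates Trem2 KO 2 was above Trem2 KO 3, and in 13 gates WT 2 was the highest WT library. The median log2 ratio was 0.26 for Trem2 KO 2 over Trem2 KO 3 and 0.24 for WT 2 over the mean of the other WT libraries. Of 3988 genes with at least 20 CPM in every gate, 1.53% were higher in both libraries numbered 2 in at least 13 gates. Hmgn3 was higher in both in 10 gates, as were 7.32% of those genes in at least as many. For the HMGB genes both libraries numbered 2 were lowest in 9 gates for Hmgb1 and Hmgb3 and in 10 for Hmgb2, counts that 10% and 6.82% of those genes reached.

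The libraries numbered 2 were those labelled as 2 male pups in 1 label, and they also had the highest median share of mitochondrial UMIs. That share was 5.68% in Trem2 KO 2 and 4.92% in Trem2 KO 3, and 4.87%, 5.62% and 3.82% in WT 1, 2 and 3. With a mitochondrial limit of 5%, Hmgn1 was higher in both libraries numbered 2 in 10 of the 12 gates left, and 2.48% of genes with at least 20 CPM in each of these gates reached that count. Sex of the pups and library quality cannot be told apart here.

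**Figure D5:**
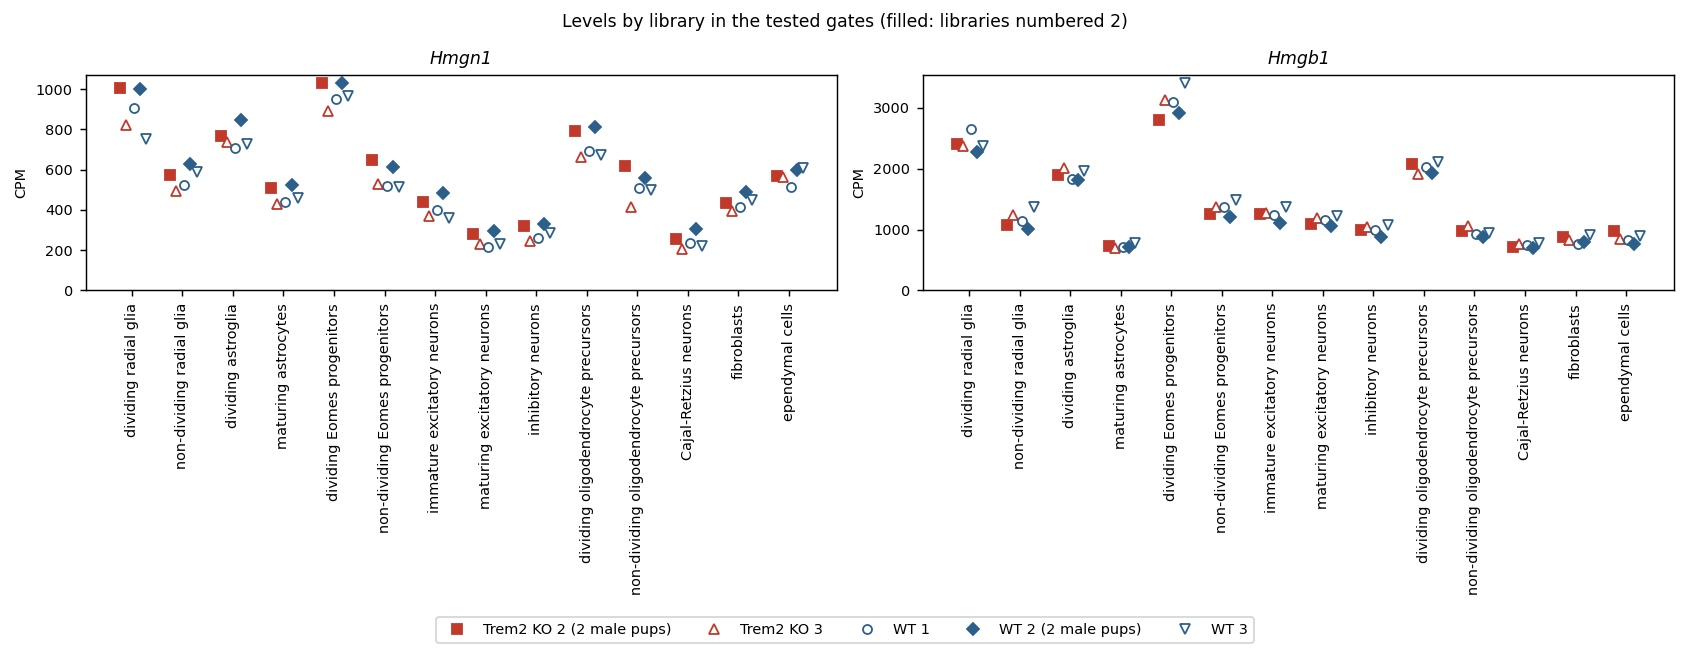
CPM of Hmgn1 (left) and Hmgb1 (right) in 14 tested gates, with red symbols for Trem2 KO libraries left of blue symbols for WT libraries and filled symbols for the libraries numbered 2. The filled symbols of Hmgn1 are the highest of their genotype in 13 gates.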

How the data were processed

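The authors deposited raw UMI counts per gene and cell barcode, made with Cell Ranger 6.1 on mm10 per the submitters' processing notes; tissue was dissociated with papain and libraries were made with a droplet 3' kit, per the labels' protocols. The annotation release, the use of intronic reads and the calling of cells are not given in the sources used here. Barcodes under 500 genes, under 1000 UMIs or over 15% mitochondrial UMIs were dropped, and 1264 doublets in all were removed, library by library, with Scrublet in scanpy 1.11.5. In the Trem2 KO libraries its automatic threshold marked 0.357% and 0.145% of cells, under the minimum of 0.5%, so the highest scores up to the expected number were removed there. Cells were gated by fixed markers and their counts summed per library and gate. The sums were tested with edgeR 4.0.16 (quasi-likelihood, TMM, filterByExpr, genotype as the only term) and a threshold of 0.05, and with DESeq2 1.42.0 as an alternative. The fits were tested on simulated data. Members, lists and gates were chosen with earlier results of these data known. Named genes were the 7 members, Trem2, the 3 genes most like each member (some are not reported here), and from each list the gene of smallest p in dividing radial glia and in maturing excitatory neurons; Hmgn5, Hmga2, Ager, Tlr2, Havcr2 and Cd24a were named after their levels were seen.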

Additional observations from a re-analysis of the deposited data

Results flagged for a closer look

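Among 14 level ratios with values from 5 libraries, 1 had a library far from the rest. Hmgn3 in maturing astrocytes over maturing excitatory neurons had a log2 ratio of 0.65 in Trem2 KO 2, and its gap to the next library was over Dixon's critical value. In that library Hmgn3 was 406 CPM in maturing astrocytes and 259 CPM in maturing excitatory neurons. Chance flags about 1 in 20 such sets.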

How the results depend on the processing

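The 7 log2 ratios of dividing radial glia over maturing excitatory neurons, and the 7 of maturing astrocytes over the same neurons, stayed within 1 SD in 128 of 140 values. The 140 include means with 1 library left out, which by arithmetic cannot move by 1 SD of the 5 libraries. Only the other settings could give an exception, so the count overstates stability. The exceptions were, for the first ratio, Hmgn3 at 0.29 by the mean over cells, Hmgb1 at 1.19, Hmgb3 at 2.20, Hmgn1 at 1.99 and Hmgn2 at 3.65 with stricter gates, and Hmgb3 at 2.48 with thinned cells. For the second ratio they were Hmgb3 at -0.25 and Hmgn1 at 0.79 by the mean over cells, Hmgb2 at 4.49 with a 5% mitochondrial limit, and Hmgb1 at -0.56, Hmgb3 at 0.59 and Hmgn1 at 1.07 with thinned cells. The sign differed from that reported in 4 of the 140 values, all of Hmgb3 in the second ratio. Ratios between other gates, recomputed after the data were seen, stayed within 1 SD in 754 of 836 values. With thinned cells, G2/M over S was 1.46 for Hmgb2 and 0.59 for Hmgn3, and maturing over immature excitatory neurons was -1.49 for Hmgb3. In CA3-like over CA1-like neurons Hmgb3 was -2.29 with a 5% mitochondrial limit and -2.37 with thinned cells, which left 1 to 6 CA1-like cells per library. The sign differed from that reported in 24 of the 836 values. In Prox1-positive over CA1-like neurons these were Hmgb3 (-0.11) and Hmga1 (-0.92) with stricter gates, and Hmgb1 (0.063), Hmgb2 (-0.53) and Hmgn2 (-0.65) with thinned cells. Hmga1 was -0.057 in dividing over non-dividing Eomes progenitors and -0.62 in the same ratio of radial glia with thinned cells, and with stricter gates -0.43 in that ratio of radial glia and -0.65 in Prox1-positive over CA3-like neurons.

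No member was called for genotype under any of 14 alternatives, with DESeq2 and without the filter included. Genes called over the 14 gates numbered 4 in the fit reported, 17 with the DESeq2 test, 710 without the filter on low counts, 94 with male pups per library as a covariate, 10 with a 5% mitochondrial limit, 1 with stricter gates and 0 with thinned cells. They ranged from 2 to 103 with each library left out, with 103 without WT 3, 24 without Trem2 KO 3 and 10 without Trem2 KO 2. With the replicate number as a block 818 genes were called, and WT 1 then has no partner. The numbers pair only 2 sets of libraries, whose same-number correlations ran from -0.29 to 0.53 over the gates and were above 0 in 13 of 14 gates for number 2 and 12 for number 3. Each library was taken as its deviation from the mean of its genotype, so the 2 Trem2 KO libraries mirror each other. Those counts are thus not independent checks, and the gates share the same libraries. For the difference between gates, 1 gene was called in the fit reported, 18 without the filter and 0 to 9 with each library left out.

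Fold changes near 0 turned sign in places. In dividing radial glia the block gave 0.032 for Hmgb1 and 0.089 for Hmgb2, stricter gates 0.028 for Hmgb1 and 0.017 for Hmgb2, the covariate 0.0049 for Hmgb2 and -0.0049 for Hmgn1, and thinning -0.039 for Hmgn2. Leaving out each library there gave -0.076 to 0.032 for Hmgb1, -0.18 to 0.092 for Hmgb2, -0.11 to 0.17 for Hmgn1 and -0.066 to 0.21 for Hmgn3. In maturing excitatory neurons the block gave -0.019 and a 5% mitochondrial limit -0.029 for Hmgn1, and thinning -0.10 for Hmgn2. Leaving out each library there gave -0.030 to 0.062 for Hmgb1, -0.20 to 0.31 for Hmgb2, -0.088 to 0.23 for Hmgn1 and -0.11 to 0.048 for Hmgn3. The cause was not tested.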
